A study of Rattus norvegicus with 12 samples.

Results

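The thin filament of the cardiac sarcomere was examined through 7 of its genes in left ventricles taken from female Sprague-Dawley rats aged 16 months. The genes were the troponins Tnnt2, Tnni3, Tnnc1 and Tnni1, the tropomyosin Tpm1 and the sarcomeric actins Actc1 and Acta1. Every probe set whose single gene symbol is one of these names was taken, which gave 14 of the 31042 probe sets on the array, for 6 of the 7 genes. Each probe set pools several short probes into a single value. Actc1 had none of its own: the 5 probe sets that could report it carry the symbols Acta2 and Actc1 together, and they are given apart from the rest.

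The study set 3 ways of housing against each other, with 4 Affymetrix rat genome arrays for each. EX rats had lifelong voluntary exercise, PA rats were placed in a large box for 1 h, 2 times weekly, and SED rats lived only in a standard cage. All 3 groups shared strain, sex and age, and the labels name no transgene or drug. By the series' design description each group had 12 animals and each array pooled 4 of them, which would fill 3 arrays, whereas 4 are listed. The animals behind each array were not settled, and p-values measure the spread between these pooled arrays, whose number limits the precision.

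In each thin filament, actin forms the strand, tropomyosin lies along it, and the troponin complex sits on tropomyosin at regular spacing. Calcium binds troponin C, the inhibitory grip of troponin I on actin loosens, and troponin T passes the change on to tropomyosin, so that myosin can bind. The adult ventricle mainly uses Tnnt2, Tnni3, Tnnc1, Tpm1 and Actc1. Tnni1, the slow skeletal troponin I, and Acta1, the skeletal actin, are known from the fetal heart. Acta1 is widely used as a marker of cardiac overload in rodents.

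Values are log2 units as deposited, and a difference of 1 is 2-fold. The array medians lay between 5.64 and 5.72. SED 1 stood apart, with a mean correlation of 0.964 to the other arrays where the others had 0.987 to 0.989. Its Gapdh control probes, read at both ends of the transcript as a measure of RNA integrity, were 1.56 units higher at the 3' end, where the other arrays gave 0.96 to 1.35. For the actin control SED 1 gave 1.70 and the others 1.37 to 1.67. The interquartile range of the values also differed by group, at 3.89 to 4.04 in EX, 3.93 to 4.03 in PA and 3.58 to 3.86 in SED, so that every SED array had a narrower spread than every EX and PA array. Quantile normalization, which gives every array the same distribution, was among the alternatives run. The part of the unequal spread in the differences from SED was otherwise not tested. Heart muscle was evident from the cardiomyocyte markers Myh6, Myl2, Myl3, Ryr2, Pln, Nkx2-5, Csrp3 and Mb: all 8 were above the filter on dim probe sets, with a mean of 12.16 to 12.21 over the EX arrays, 12.18 to 12.24 over PA and 12.14 to 12.25 over SED. Most of them are also made in atria, and the atrial markers, given with Acta1, were above the filter too. In whole tissue, fewer cells of a type and less RNA per cell cannot be told apart.

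Thin filament genes did not change between the groups at the threshold used. Of the 14 probe sets, 11 were bright enough to be tested, and 0 of 11 passed an adjusted limma p of 0.05 in EX against SED, in PA against SED or in EX against PA. Over all 18626 tested probe sets the share past that threshold was 0% in each comparison. At an unadjusted p under 0.05 the count was also 0 of 11 in all 3. Of all probe sets, 15.6% passed in EX against SED, 15.2% in PA against SED and 2.87% in EX against PA. For Tnnt2, Tnni3, Tnnc1 and Tpm1 1371240_at and 1371241_x_at, the range over all arrays was only 0.080 to 0.15 units. Their limma standard errors, 0.069 to 0.073, also draw on the spread of all probe sets. At these standard errors no grouping of those values could reach a limma p under 0.05. Their part of both counts therefore cannot show stability. In EX against SED 5 of the 11 were higher and 6 lower, with a median of -0.0050 beside 0.055 over all tested probe sets. In PA against SED the split was the same, with a median of -0.010 beside 0.063. In EX against PA 4 were higher and 7 lower, with a median of -0.017 beside -0.0100.

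**Figure D1:**
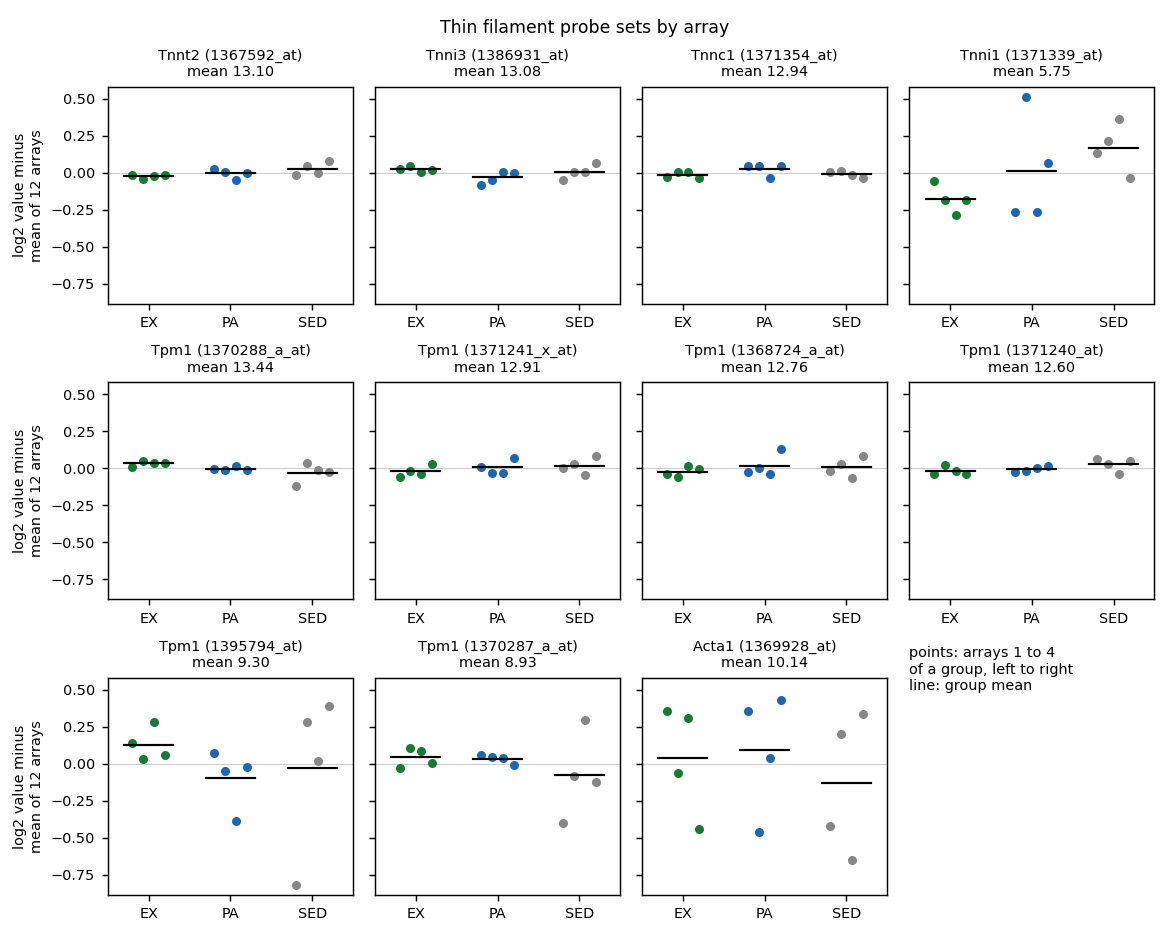
Log2 value of each of the 11 tested thin filament probe sets on each array, minus its mean over the 12 arrays, for EX, PA and SED (4 arrays each; the line is the group mean). The 7 bright probe sets stay within 0.20 log2 units from lowest to highest array, while Acta1 covers 1.08 units with EX, PA and SED arrays all spread over that range.

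The adult troponin subunits varied little, as did other probe sets of their brightness. Tnnt2, the subunit that ties troponin to tropomyosin (probe set 1367592_at), read 13.09, 13.06, 13.08 and 13.09 in EX, 13.13, 13.11, 13.05 and 13.10 in PA, and 13.09, 13.15, 13.10 and 13.18 in SED. The groups overlapped, and the 12 arrays covered 0.13 log2 units. EX differed from SED by -0.050 ± 0.070 (SE), or 0.966-fold with a 95% interval of 0.869 to 1.07. The PA difference from SED was -0.032 (interval -0.19 to 0.12), and EX from PA by -0.017 (-0.17 to 0.14). A further Tnnt2 probe set, 1390061_at, lay below the filter at 4.94, with means of 3.74 ± 0.19 in EX, 3.75 ± 0.20 in PA and 3.55 ± 0.20 in SED (SD, n = 4 each), and was not tested.

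Tnni3, the adult inhibitory subunit, whose N-terminal extension is the target of protein kinase A, read 13.11, 13.13, 13.09 and 13.10 in EX, 13.00, 13.03, 13.09 and 13.08 in PA, and 13.03, 13.09, 13.09 and 13.15 in SED. All arrays lay within 0.15 units, the groups overlapped, and PA 1 was lowest. Against SED, EX differed by 0.018 ± 0.071 (SE; interval -0.14 to 0.17), a sign that turned with centring of the array medians. Against SED, PA differed by -0.040 (-0.20 to 0.12) and EX from PA by 0.058 (-0.098 to 0.21).

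Tnnc1, the calcium sensor of cardiac and slow skeletal muscle, read 12.91, 12.94, 12.94 and 12.90 in EX, 12.98, 12.98, 12.90 and 12.98 in PA, and 12.94, 12.95, 12.92 and 12.90 in SED. It had the smallest range of the 14 probe sets, 0.080 units or 1.06-fold. PA differed from SED by 0.032 ± 0.069 (SE) and EX from PA by -0.037 (interval -0.19 to 0.11). EX differed from SED by -0.0050 (-0.16 to 0.15), with the sign turned by quantile normalization.

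These narrow intervals have a limit of their own. The SDs of Tnnt2, Tnni3 and Tnnc1 within the groups were 0.014 to 0.049, while the model's standard errors of about 0.07 also draw on the spread of all probe sets. The 3 genes and 4 of the Tpm1 probe sets ranked between 1 and 95 by mean among all 31042 probe sets. Among probe sets within 0.5 units of its own mean, the share with a smaller SD within groups was 17.4% for Tnnt2, 31.6% for Tnni3, 7.80% for Tnnc1 and 57.6% for Tpm1 1370288_a_at. The brightest probe set of the whole array was one of Tpm1, whose EX 2 value of 13.49 was the highest of any probe set. Whether the scale is compressed near this top was not tested. For these 7 probe sets the interval of each comparison lay within 0.25 units of 0, which is 1.19-fold either way, on the scale as deposited.

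**Figure D2:**
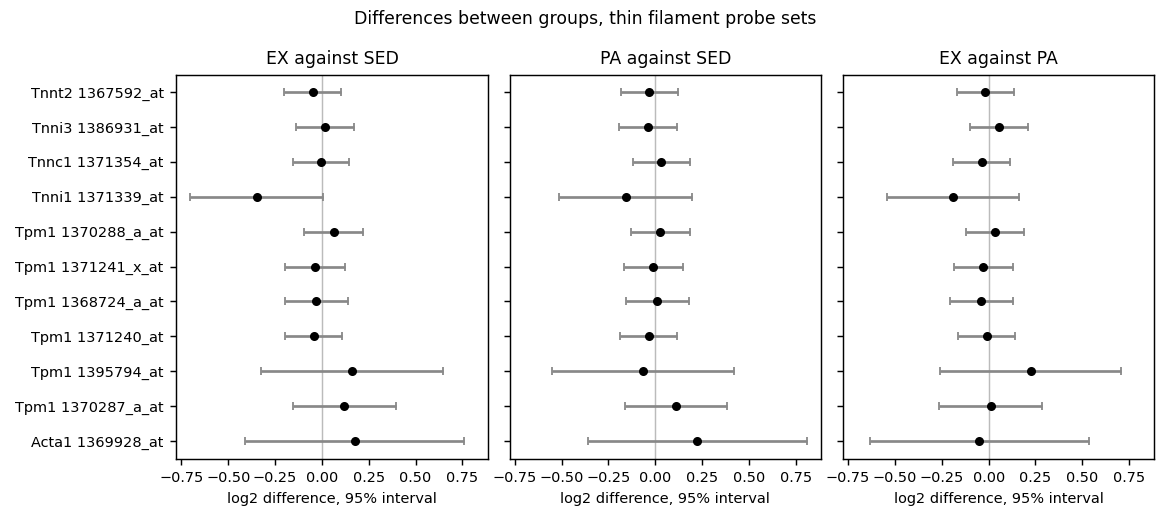
Differences between groups in log2 units (points) with 95% intervals from limma (bars) for the 11 tested thin filament probe sets, in EX against SED, PA against SED and EX against PA. Every interval includes 0; the Tnni1 interval in EX against SED ends at 0.0072.

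Tnni1, the troponin I of fetal heart and slow skeletal muscle, gave the largest difference among the 7 genes. Probe set 1371339_at read 5.69, 5.56, 5.46 and 5.56 in EX, 5.48, 6.26, 5.48 and 5.81 in PA, and 5.88, 5.96, 6.11 and 5.71 in SED. All 4 EX arrays lay below all 4 SED arrays, by 0.02 units at the nearest pair, and the PA arrays spanned both. EX differed from SED by -0.35 ± 0.16 (SE; interval -0.70 to 0.0072), with a limma p of 0.0541 and 0.329 after adjustment. PA differed from SED by -0.16 (-0.51 to 0.20) and EX from PA by -0.19 (-0.54 to 0.16). Without PA 2, the highest PA array, these were -0.32 and -0.023. Leaving out PA 1 or PA 3 gave -0.065 for PA against SED and -0.28 for EX against PA.

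Among the 11 tested probe sets, Tnni1 was the 1 whose EX and SED arrays did not overlap, where 7.89% of all probe sets had no overlap, so the share of 9.09% was near the background. In PA against SED and in EX against PA there were 0 of 11 without overlap, beside 8.39% and 2.78% of all probe sets. The other Tnni1 probe set, 1386873_at, lay below the filter and was not tested. It read 4.19, 3.98, 3.83 and 4.04 in EX, 4.02, 4.20, 4.20 and 3.89 in PA, and 4.33, 4.15, 4.04 and 4.55 in SED. Its order of means was that of the brighter probe set, SED above PA above EX, with EX and SED overlapping.

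Each array also gives the difference between Tnni1 and Tnni3, which would show unequal change of the fetal and the adult troponin I and not the ratio of their mRNAs. The SD within groups was 0.039 for Tnni3 and 0.24 for Tnni1, so this difference largely repeats the Tnni1 values and is not separate evidence. It averaged -7.54 ± 0.09 in EX, -7.29 ± 0.38 in PA and -7.18 ± 0.19 in SED (SD, n = 4 each). EX lay below SED by 0.37 on average, and the groups met, with EX from -7.63 to -7.42 and SED from -7.44 to -6.98. The exact two-sided permutation test gave p = 0.0571 (0.171 adjusted over the 3 comparisons), where 0.0286 is the smallest p that 4 against 4 arrays allow. For PA against SED the difference was -0.12 (exact permutation p = 0.6) and for EX against PA -0.25 (exact permutation p = 0.257). The matching difference between Acta1 and Actc1 could not be formed, since Actc1 has no probe set of its own.

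Tpm1, the striated muscle alpha-tropomyosin, is spliced into many isoforms and had 7 probe sets, of which 6 were tested. Those ending in _a_at match more than 1 transcript of the gene, and the one ending in _x_at may also pick up related sequences. The brightest, 1370288_a_at, read 13.45, 13.49, 13.48 and 13.48 in EX, 13.44, 13.43, 13.46 and 13.43 in PA, and 13.32, 13.48, 13.43 and 13.42 in SED. SED 1 was its lowest array, and every EX array was above PA 1, PA 2 and PA 4. The EX difference from SED was 0.063 ± 0.072 (SE) and PA from SED by 0.028 (interval -0.13 to 0.18). Without SED 1 the EX difference was 0.032 and the PA difference -0.0033.

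The other bright Tpm1 probe sets varied as little. For 1371241_x_at, 1368724_a_at and 1371240_at the EX means were 12.89, 12.74 and 12.58, the PA means 12.92, 12.78 and 12.59, and the SED means 12.93, 12.77 and 12.63. All groups overlapped in each. The differences of EX from SED were -0.038, -0.030 and -0.045, opposite in sign to that of 1370288_a_at, and all 4 were smaller than their standard errors of 0.070 to 0.077.

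The 2 dimmer Tpm1 probe sets varied more. Probe set 1395794_at read 9.44, 9.33, 9.58 and 9.36 in EX, 9.37, 9.25, 8.91 and 9.28 in PA, and 8.48, 9.58, 9.32 and 9.69 in SED. Both its lowest array, SED 1, and its highest, SED 4, were sedentary, 1.21 units or 2.31-fold apart. EX differed from SED by 0.16 ± 0.22 (SE) and, without SED 1, by -0.10. PA differed from SED by -0.065 and, without SED 1, by -0.33 (limma, adjusted p = 0.342).

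Probe set 1370287_a_at, also of Tpm1, read 8.90, 9.04, 9.02 and 8.94 in EX, 8.99, 8.98, 8.97 and 8.92 in PA, and 8.53, 8.85, 9.23 and 8.81 in SED. SED 1 was again lowest and SED 3 highest, so the SED range of 0.70 was wider than those of EX (0.14) and PA (0.070). Without SED 1 the difference of EX from SED was 0.012, against 0.12 with all arrays. The part of RNA integrity in the low SED 1 values was not tested. The seventh, 1370513_at, read 3.04 to 4.46 over all arrays and was below the filter.

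The Tpm1 probe sets thus did not move as one. In EX against SED, 3 of the 6 were higher and 3 lower, with differences from -0.045 to 0.16, and the split was 3 and 3 in PA against SED and in EX against PA too. After group means were taken off, the correlation over the 12 arrays was 0.80 between 1371241_x_at and 1368724_a_at and 0.71 between 1370288_a_at and 1395794_at. It was -0.67 between 1371240_at and 1370287_a_at. SED 1 was the lowest array in both 1370288_a_at (13.32) and 1395794_at (8.48). In 1371240_at it was the highest (12.66) and in 1370287_a_at the lowest (8.53). The correlations were not repeated without SED 1. They describe probe sets measured on the same arrays, whose overall signal the probe sets share.

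Acta1, the skeletal alpha-actin that the heart makes before birth, was the most variable of the tested probe sets of the 7 genes. It read 10.50, 10.08, 10.45 and 9.70 in EX, 10.50, 9.68, 10.18 and 10.57 in PA, and 9.72, 10.34, 9.49 and 10.48 in SED. Each group held both high and low arrays, with ranges of 0.80 in EX, 0.89 in PA and 0.99 in SED, and the groups overlapped throughout. Its SD within groups was 0.42, against 0.029 to 0.061 for the 7 bright probe sets and a median of 0.22 over all tested probe sets. Of the 1712 other probe sets with a mean within 0.5 units of that of Acta1, 98.9% had a smaller SD within groups.

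Because of this spread the Acta1 intervals were wide. The EX difference from SED was 0.17 ± 0.27 (SE), or 1.13-fold with an interval of 0.753 to 1.69. The PA difference from SED was 0.22 (-0.36 to 0.81) and EX from PA by -0.05 (-0.63 to 0.53). Without SED 3, the lowest array, the EX difference was 0.0025, and with arrays weighted by their quality it was -0.012. The PA difference from SED was 0.052 without SED 3 and 0.41 without PA 2, and that of EX from PA ran from -0.23 to 0.11 as single arrays were left out.

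Acta1 was the 1 member whose promoter held an exact CArG box, the binding motif of serum response factor, in the 250 bases before the gene start. Exact here means CC, then 6 letters of A or T, then GG. Near matches, such as ccctatatgg in the Actc1 promoter, were not counted. RefSeq promoters of build GRCr8 were found for 6 of the 7 genes, Tnnc1 not among them, with 2 starts for Tnnt2, and both strands were searched. Of all 33469 promoters of that length, 501 held a CArG box and 12.9% held the letters TATAAA. The Acta1 promoter also held TATAAA and, like 2 others of the 7 promoters, the MCAT motif CATTCC (12.1% of all). A MEF2 site was in 0 of 7 (2.96% of all), AGATAA in 2 (10.3% of all) and CANNTG in 5 (65.5% of all). The Acta1 sequence is shown because this gene had the largest SD within groups of the tested probe sets, though Tpm1 1395794_at had a wider range over the 12 arrays (1.21 against 1.08 units). It lies on the minus strand at chr19:68784195-68784444 and is printed 5′ to 3′, ending just before the gene start, with the CArG box (from position -94) and TATAAA (from -29) in capitals, which do not overlap. These matches describe the letters only.
Acta1: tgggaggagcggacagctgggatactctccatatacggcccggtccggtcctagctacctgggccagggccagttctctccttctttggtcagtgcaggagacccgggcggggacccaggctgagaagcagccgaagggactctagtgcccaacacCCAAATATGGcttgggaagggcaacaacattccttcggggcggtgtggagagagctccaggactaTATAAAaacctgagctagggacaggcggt

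The genes whose pattern was most like that of Acta1, by Pearson correlation over the 12 arrays after group means were taken off, were Pitpnm2 (r = 0.942, Spearman rho = 0.902) and Tmlhe (r = 0.925, rho = 0.869). Without the 2 arrays farthest from the Acta1 median, SED 3 and PA 2, r was 0.907 and 0.973. They are the 2 highest of 10244 genes searched, and the arrays share depth of signal, so the values describe likeness alone. Nppa, the atrial natriuretic peptide and like Acta1 a fetal gene, was looked at after its values were seen, outside the naming rule, with 3 other genes linked to heart load. Nppa had r = 0.645 (rho = 0.578), Nppb 0.372, Myh7 0.247 and Myh6 0.139. Without SED 1, r was 0.617 for Nppa, 0.295 for Nppb, 0.574 for Myh7 and 0.081 for Myh6. The Nppa EX values of 10.74, 10.22, 10.92 and 10.05 were ordered much like those of Acta1, but SED 4 was low in Nppa (9.83) and high in Acta1.

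Marker lists were set beside Acta1. The mean of 4 atrial markers (Nppa, Myl4, Myl7, Sln) was 8.55 and 8.97 in EX 1 and EX 3, where Acta1 was high, and 6.80 and 6.70 in EX 2 and EX 4. It ranged from 7.38 to 7.91 in PA and from 7.38 to 8.02 in SED. Its correlation with Acta1 within groups was 0.371. The smooth muscle and pericyte markers had 0.681, the cardiomyocyte markers 0.496, the skeletal muscle markers 0.349, fibroblasts 0.268, adipocytes 0.165, endothelium 0.144, blood cells -0.11 and leukocytes -0.17. These correlations used only the markers above the filter, while the averages used every marker on the array. That of adipocytes thus rests on 1 gene, Fabp4, and that of skeletal muscle on 4 of 9. The 0.681 used 6 of 9, namely Myh11, Tagln, Smtn, Acta2, Rgs5 and Pdgfrb. Acta2 is itself an actin, and its part in the 0.681 was not tested. Of the 9 skeletal muscle markers on the array, Myh2, Myh4, Tnni2, Actn3 and Myod1 lay below the filter. The skeletal list averaged 5.35 to 5.51 in EX, 5.34 to 5.44 in PA and 5.43 to 5.57 in SED. The 9 smooth muscle and pericyte markers averaged 6.10 to 6.36 in EX, 6.17 to 6.20 in PA and 6.02 to 6.36 in SED, with Cnn1, Lmod1 and Actg2 below the filter. The part of these tissues in the Acta1 spread was not tested.

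**Figure D3:**
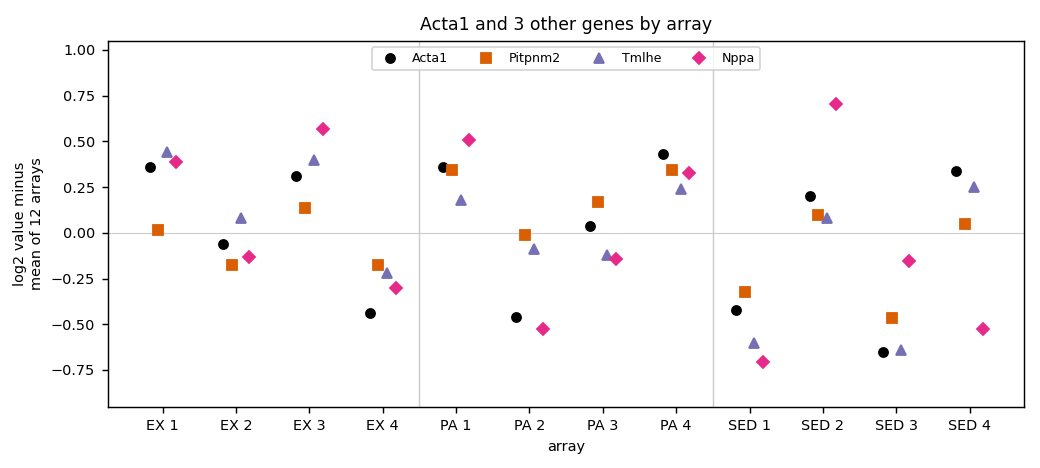
Log2 value minus the mean of 12 arrays for Acta1 and for Pitpnm2, Tmlhe and Nppa on each EX, PA and SED array. In EX all 4 genes are higher on arrays 1 and 3 than on array 4; in SED 4 Acta1 (10.48) and Nppa (9.83) part.

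The probe sets annotated to both Acta2, the smooth muscle actin, and Actc1, the cardiac actin, cannot be given to either gene. Of the 5, 4 were tested, and 1381861_x_at, with means of 3.68 in EX, 3.83 in PA and 3.97 in SED, lay below the filter. The brightest, 1370856_at, read 13.32, 13.38, 13.37 and 13.36 in EX, 13.39, 13.35, 13.38 and 13.41 in PA, and 13.25, 13.38, 13.31 and 13.43 in SED. Its groups overlapped, and EX differed from SED by 0.015 ± 0.074 (SE). Probe sets 1374353_x_at and 1374352_at differed by -0.063 and -0.015 in EX against SED and by 0.050 and 0.067 in PA against SED, each below its standard error of 0.088 or 0.093.

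The fourth shared probe set, 1385797_at, was far lower in SED 1 than elsewhere. It read 12.91, 13.12, 13.01 and 12.98 in EX, 13.04, 12.99, 13.05 and 13.01 in PA, and 12.43, 12.96, 12.98 and 12.86 in SED. The PA and SED arrays did not overlap, by 0.01 units. PA differed from SED by 0.21 ± 0.12 (SE; limma, adjusted p = 0.4) and EX from SED by 0.20 (limma, adjusted p = 0.449). Without SED 1 the differences were 0.089 and 0.072. Acta2 had a probe set of its own, which read 5.51 ± 0.46 in EX, 5.19 ± 0.12 in PA and 5.28 ± 0.30 in SED (SD, n = 4 each). Acta2 in EX against PA was the largest difference of its list in that comparison, 0.31 ± 0.21 (SE; limma, adjusted p = 1), and ran from 0.20 to 0.54 as single arrays were left out.

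The 6 genes shared little of their variation with each other. Over the 15 pairs of their brightest probe sets, the correlation within groups ran from -0.53, for Tnni3 with Tnnc1 and for Tnni1 with Acta1, to 0.51 for Tnnt2 with Acta1. Tnni1 and Tnnt2 lie close together on rat chromosome 13 with 1 annotated gene, Lad1, between them (GRCr8), and their correlation was -0.027. The genes most like the others were again the highest of 10244 genes searched, after group means were taken off. They were Atp5if1 (r = 0.932) and Mea1 (r = 0.932) for Tnnt2, Klhl7 (r = 0.941) and Prkar1a (r = 0.905) for Tnni3, and Srd5a3 (r = 0.891) and Pear1 (r = 0.88) for Tnnc1. For Tnni1 they were Tnrc6c (r = 0.866) and Retreg3 (r = 0.848), which stood at 0.683 and 0.635 without PA 2 and PA 3. For Tpm1 they were Trim32 (r = 0.983) and Mapkapk3 (r = 0.976), at 0.924 and 0.86 without SED 1 and SED 2. With group means left in, r was only 0.166 for Tnni3 with Prkar1a and -0.060 for Tnni1 with Tnrc6c. For the other genes of these searches it ran from 0.371 (Retreg3) to 0.911 (Mapkapk3).

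Other genes around the thin filament were read from 6 lists, again with 0 past the threshold in any comparison. Over all 10244 tested genes, 57.0% were higher in EX against SED, 59.9% in PA against SED and 44.3% in EX against PA, and 12.9%, 12.48% and 2.53% had an unadjusted p under 0.05. Those that set filament length, cap its ends or anchor it had 28 tested members of 32. In EX against SED 15 were higher and 13 lower (median 0.015, beside 0.033 over all tested genes), and in PA against SED 21 were higher and 7 lower (median 0.044 beside 0.048). In EX against PA 10 were higher and 18 lower (median -0.026 beside -0.018). At an unadjusted p under 0.05 the counts were 1, 0 and 1 of 28, or 3.57%, 0% and 3.57%, beside the shares of all genes given above.

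That 1 gene was Tmod4, a tropomodulin that caps the pointed end of actin filaments, known mainly from skeletal muscle. It read 7.54, 7.35, 7.54 and 7.60 in EX, 7.78, 7.73, 7.80 and 7.86 in PA, and 8.13, 7.81, 7.97 and 7.97 in SED. All EX arrays lay below all PA and all SED arrays, and PA and SED overlapped. Between EX and SED the difference was -0.46 ± 0.09 (SE; limma, unadjusted p of 0.000317 and adjusted p = 0.133), and between EX and PA -0.29 ± 0.09 (limma, adjusted p = 1). Between PA and SED the difference was -0.18 (limma, adjusted p = 0.377). Over the alternatives the adjusted p of Tmod4 in EX against SED ran from 0.0715 to 0.323, with a difference of -0.57 to -0.38.

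Lmod2, a leiomodin that lengthens cardiac thin filaments, stood at 11.29 ± 0.11 in EX, 11.29 ± 0.08 in PA and 11.12 ± 0.13 in SED (SD, n = 4 each). The difference was 0.17 ± 0.09 (SE) in EX against SED and 0.18 ± 0.09 in PA against SED (limma, adjusted p = 0.418 and adjusted p = 0.395). Capzb, the beta subunit of the cap at the Z-disc end, differed by -0.27 ± 0.14 in PA against SED (limma, adjusted p = 0.382) and by -0.14 without SED 1.

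**Figure D4:**
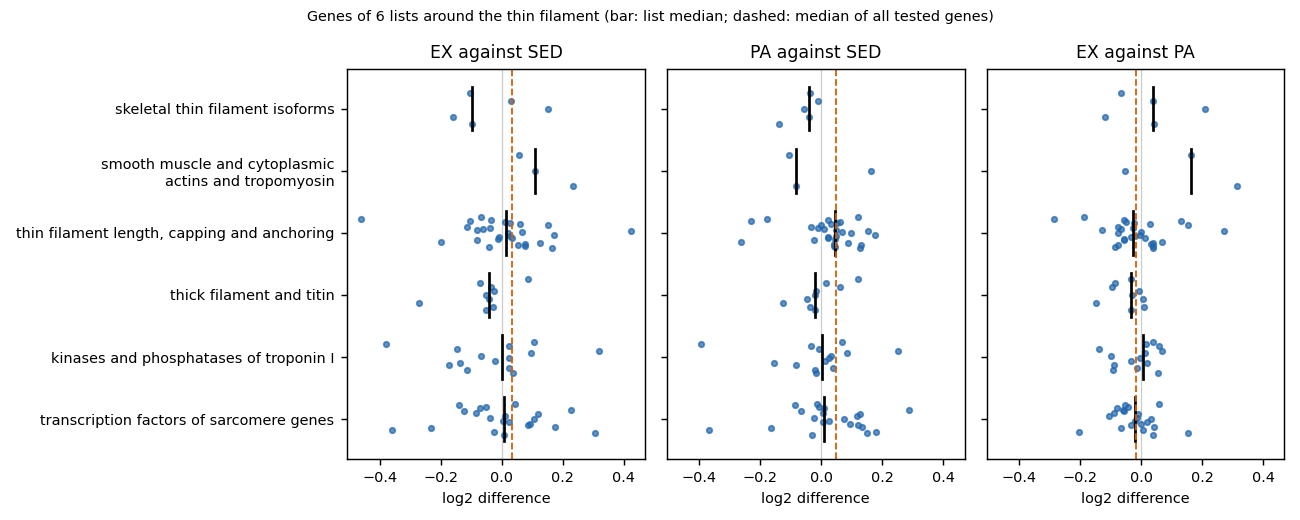
Log2 difference of each tested gene (points) of 6 lists around the thin filament in EX against SED, PA against SED and EX against PA; bars are list medians and the dashed line is the median of all 10244 tested genes. The point farthest to the left in EX against SED is Tmod4 at -0.46.

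Skeletal isoforms of the thin filament (5 tested of 6) had 2 higher and 3 lower in EX against SED and 0 higher and 5 lower in PA against SED, and 3 higher and 2 lower in EX against PA. Tnnt1, the slow skeletal troponin T, differed by -0.16 ± 0.13 (SE) in EX against SED, and Tnnc2, the fast skeletal troponin C, by -0.14 ± 0.12 in PA against SED. Tnnt3, the fast troponin T, differed by 0.21 ± 0.15 in EX against PA. Leaving out single arrays moved these from -0.22 to -0.099 for Tnnt1, from -0.26 to -0.035 for Tnnc2 and from 0.11 to 0.30 for Tnnt3. Of the smooth muscle and cytoplasmic actins and tropomyosin, 3 were tested of 5, with 3, 1 and 2 higher in EX against SED, PA against SED and EX against PA. Actg1, a cytoplasmic actin, differed by 0.16 in PA against SED and by -0.013 without SED 1.

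Thick filament genes and titin (9 tested of 10) had 1 higher and 8 lower in EX against SED (median -0.042), 3 higher and 6 lower in PA against SED (median -0.020) and 2 higher and 7 lower in EX against PA (median -0.033). Over all tested genes the medians were 0.033, 0.048 and -0.018. Apart from Myh7, the differences of this list in EX against SED were small, from -0.073 to 0.085 (limma, unadjusted p of 0.428 to 0.74). Myh7, the slow myosin heavy chain, had the smallest p of the list in EX against SED, with a difference of -0.27 ± 0.14 (SE; limma, adjusted p = 0.366), which was -0.15 without SED 1. Ttn, titin, differed by 0.12 ± 0.10 in PA against SED and by 0.028 without SED 1. Myom1, an M-band protein, differed by -0.095 ± 0.086 in EX against PA, and by -0.14 to -0.057 as single arrays were left out.

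Kinases and phosphatases of troponin I (14 tested of 17) were split 7 and 7 in all 3 comparisons. At an unadjusted p under 0.05 there were 2 in EX against SED, or 14.3% where 12.9% of all tested genes passed, 1 in PA against SED (7.14% beside 12.48%) and 0 in EX against PA (beside 2.53%). Prkd1, protein kinase D1, which phosphorylates troponin I, read 6.09, 6.17, 5.80 and 6.05 in EX, 6.08, 6.02, 5.92 and 6.03 in PA, and 6.41, 6.31, 6.27 and 6.64 in SED. Both EX and PA lay wholly below SED. The differences were -0.38 ± 0.11 (SE) in EX against SED and -0.39 ± 0.11 in PA against SED (limma, adjusted p = 0.152 and adjusted p = 0.187), and the SED arrays are the same in both. Prkca, protein kinase C alpha, differed by 0.32 ± 0.14 in EX against SED and 0.25 ± 0.14 in PA against SED (limma, adjusted p = 0.299 and adjusted p = 0.402), and without SED 1 by 0.22 and 0.15. Ppp2r5a, a regulatory subunit of protein phosphatase 2A, differed by -0.16 ± 0.08 in PA against SED, and Prkar1a, a regulatory subunit of protein kinase A, by -0.097 ± 0.074 in EX against PA.

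Transcription and splicing factors of sarcomere genes (21 tested of 23) had 12 higher and 9 lower in EX against SED, 13 and 8 in PA against SED and 7 and 14 in EX against PA. At an unadjusted limma p under 0.05 there were 1, 2 and 0, or 4.76%, 9.52% and 0%. These shares were below the 12.9%, 12.48% and 2.53% of all tested genes. Gata6, a cardiac GATA factor, differed by -0.36 ± 0.13 (SE) in EX against SED and -0.37 ± 0.13 in PA against SED (limma, adjusted p = 0.215 and adjusted p = 0.243). With its probe sets averaged the values were -0.045 and 0.0025. Srf, serum response factor, which binds the CArG box, differed by 0.23 ± 0.12 in EX against SED and 0.29 ± 0.12 in PA against SED (limma, adjusted p = 0.372 and adjusted p = 0.278), or -0.050 and 0.020 with its probe sets averaged. Without SED 1 the Srf differences were 0.12 and 0.18. Gata4, another cardiac GATA factor, differed by -0.20 ± 0.14 in EX against PA, and by -0.29 to -0.11 as single arrays were left out.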

How the data were processed

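RNA from the left ventricle was hybridized to 12 Affymetrix arrays. The deposited table holds log2 values with 2 decimals for 31099 rows. MAS5 and RMA appear in the submitters' processing notes with no role stated, so the background correction is not given in the sources used here. Groups came from the titles. After removal of 57 control rows, the upper 60% of probe sets by mean over all arrays were tested (18626 of them, with a mean of at least 4.94). For the 10244 genes the brightest tested probe set stood for the gene.

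limma 3.58.1 in R 4.3.3 was fitted once to the 12 arrays with a mean per group, leaving 9 residual degrees of freedom. Two-sided moderated p-values were adjusted over all tested probe sets (Benjamini-Hochberg, threshold 0.05). Intervals are 95%. The steps were tested on simulated data. For the limma fit the simulated noise was independent and equally wide on all arrays. It held no array standing apart like SED 1 and no group difference in interquartile range, so it cannot speak to those features. Array data carry no read depth. The members and lists were chosen with earlier results of these data known. Named genes were all members, the genes of smallest p in each list and the 2 most correlated genes. Of 20826 probe sets with 1 symbol, 68 gene identifiers were not found in the GRCr8 annotation and kept their symbol, while 436 probe sets with several symbols and 9780 with none listed were not named. The alternatives were quantile normalization, median centring, other filters, a linear offset of 32, trended robust variance, array weights, compared groups only, a replicate block, probe sets averaged per gene, and each array left out in turn. The difference of Acta1 and Actc1 within arrays was not computed, as no probe set names Actc1 alone, so p-values of Tnni1 minus Tnni3 were adjusted over 3 comparisons. The replicate numbers were checked as pairs. Same-numbered arrays of different groups had correlations of -0.21 to 0.13 in their deviations from group means. Arrays of other numbers had -0.21 to 0.22, so same-numbered arrays were not treated as paired.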

Additional observations from a re-analysis of the deposited data

Results flagged for a closer look

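The tested thin filament probe sets and the tested probe sets shared by Acta2 and Actc1 were looked at together. Among their 45 sets of 4 arrays, 1 array lay apart from its group, where chance alone gives about 2.25. For Tnnc1 (1371354_at), PA 3 read 12.90 while the other 3 PA arrays each read 12.98, so the gap made up the whole range of the group.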

How the results depend on the processing

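The count of thin filament probe sets past the threshold was 0 in each comparison under every alternative run, and 0 in each when any array of the compared groups was left out. Over all probe sets the count was 0 in the 3 comparisons. With array weights it was 8 in EX against SED, 1 in PA against SED and 1 in EX against PA, with averaged probe sets it was 2 in EX against SED, and leaving out 1 array gave 0 to 2 in EX against SED. The replicate block gave 0 calls in each comparison and changed no other call, and its value of Tnni1 minus Tnni3 was -0.37 in EX against SED. Same-numbered arrays did not stand out as pairs: 4 of 12 same-number correlations were over 0.1, beside 10 of 36 between arrays of other numbers. The medians were 0.037 and -0.0010. Leaving out 1 array, Tnni1 minus Tnni3 ran from -0.45 to -0.30 in EX against SED.

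Signs turned for these differences, of which none had passed the threshold. In EX against SED, Tnnc1 was 0.011 with quantile normalization, Tnni3 was -0.0025 and the shared probe set 1370856_at -0.0050 with median centring. With array weights they were -0.00083 (Tnni3), -0.065 (Tpm1 1395794_at), -0.012 (Acta1) and -0.012 (1370856_at), and in PA against SED -0.0070 (Tpm1 1370288_a_at) and -0.00065 (Tpm1 1368724_a_at). With averaged probe sets Srf was -0.050 in EX against SED and Gata6 0.0025 in PA against SED. Leaving out 1 array in EX against SED gave ranges of -0.0025 to 0.037 (Tnni3), -0.014 to 0.0025 (Tnnc1), -0.10 to 0.30 (Tpm1 1395794_at), -0.016 to 0.044 (1370856_at) and -0.089 to 0.027 (1374352_at). In PA against SED they were -0.0033 to 0.050 (Tpm1 1370288_a_at), -0.032 to 0.012 (Tpm1 1371241_x_at), -0.028 to 0.035 (Tpm1 1368724_a_at), -0.33 to 0.076 (Tpm1 1395794_at), -0.0067 to 0.11 (1374352_at) and -0.013 to 0.29 (Actg1). In EX against PA they were -0.012 to 0.035 (Tpm1 1370287_a_at), -0.23 to 0.11 (Acta1) and -0.056 to 0.014 (1385797_at). The cause was not tested. Acta1 minus Actc1 and its other settings were not run, since no probe set names Actc1 alone.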
